A study of Danio rerio with 14 samples.

Results

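The sites described are all peaks of CTCF over input in zebrafish (Danio rerio) embryos, taken whole and of strain AB/PS, at 10 hours post fertilisation (hpf), when gastrulation ends. Every peak of the deposited list that lies on chromosomes 1 to 25 was taken, with no further choice. That is 14079 peaks, the whole list, out of the 41310 peaks that the 4 lists of the series hold. The groups are 10 hpf CTCF (chromatin immunoprecipitated with a custom antibody against CTCF, 2 libraries) and 10 hpf Input (chromatin of the same stage with no antibody, 2 libraries). The Rad21 lists of 2.5, 4.5 and 10 hpf (2 libraries each, over the input of their own stage) are used for overlaps with the CTCF peaks, for the contents of stretches without CTCF and for layouts set side by side. The outermost peak of any of the 4 lists also set the length of each chromosome, on which the densities and end ratios rest. All embryos were whole, pooled animals of 1 strain with no stated mutation or treatment, and each library came from a pool of 1000 embryos (2000 at 2.5 hpf), so that binding in single tissues is averaged.

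CTCF is a zinc finger protein that binds DNA directly. It is known in vertebrates for its sites at the borders of chromatin domains, where it halts cohesin, the ring complex of which Rad21 is a subunit, as cohesin extrudes loops of chromatin. How CTCF sites are spaced along a chromosome therefore bears on which stretches of DNA can be held in a loop. In zebrafish, the long arm of chromosome 4 is known to be rich in repeats, late to replicate and poor in ordinary protein-coding genes.

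The list is 1 call against 1 input, without a value per library, so no spread between replicates and no test between groups could be had. The intervals given below are exact 95% intervals of a count or share unless another method is named. They cover counting error only and treat peaks as independent, which neighbouring peaks need not be. Per the file headers, 28291282 CTCF tags entered the call, 292017 of them in peaks (1.03%), a mean of 20.7 tags per peak. The caller's false discovery rate threshold stood at 15 tags, so the mean peak was not far above it. Each peak is 165 bp wide, and together they cover 2.32 Mb, or 0.171% of the 1356 Mb of the chromosomes. All positions are on the Zv9 build. No sequence or gene at the peaks was analysed here.

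The list as a whole held 10.4 peaks per Mb, 1 per 96.3 kb. It is what remained of 90217 candidate peaks, of which the filter on enrichment over input removed 65469 (72.6%) and that on enrichment over the surrounding 10000 bp removed 10669 (11.8%), per the file headers. The identifiers of the peaks carry a number within their chromosome. The largest numbers sum to 90038 over the chromosomes, close to the number of candidates, and they were read as places among the candidates of a chromosome, which the headers do not state. In that reading, 39.7% (38.6 to 40.7) of the places in the first of 10 equal parts were in the final list, 3.25% (2.90 to 3.64) in the ninth and 9.02% (8.43 to 9.63) in the last. The share kept also differed between chromosomes. It was highest on chromosome 25, at 18.9% (17.3 to 20.6), and lowest on chromosome 4, at 12.8% (11.7 to 14.0).

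Density was much alike on most chromosomes. The median over the 25 was 10.5 peaks per Mb with an SD of 1.06 between chromosomes, and all but chromosomes 4, 7 and 11 lay between 9.59 and 11.4. Chromosome 11 was the densest, with 606 peaks or 13.0 per Mb (12.0 to 14.1). Chromosomes 10 and 21 came next, with 531 peaks or 11.4 per Mb (10.5 to 12.4) and 507 peaks or 11.4 per Mb (10.4 to 12.4). These intervals overlap, so that the order of chromosomes 10 and 21 is not resolved. Chromosome 11 stood 1.14 times above them, a ratio with no interval computed, and its own interval overlaps both of theirs. At the other end, chromosome 4 had 431 peaks or 6.94 per Mb (6.30 to 7.63). Chromosome 7 had 689 peaks or 8.92 per Mb (8.27 to 9.61), and chromosome 20 had 535 or 9.59 per Mb (8.79 to 10.4). The ratio of the densest to the sparsest, chromosome 11 over chromosome 4, was 1.87 (1.65 to 2.12). It was 1.46 without chromosome 4. Shorter chromosomes tended to be denser, with a Spearman rho of -0.47 between density and length over the 25 chromosomes, given as a description.

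**Figure D1:**
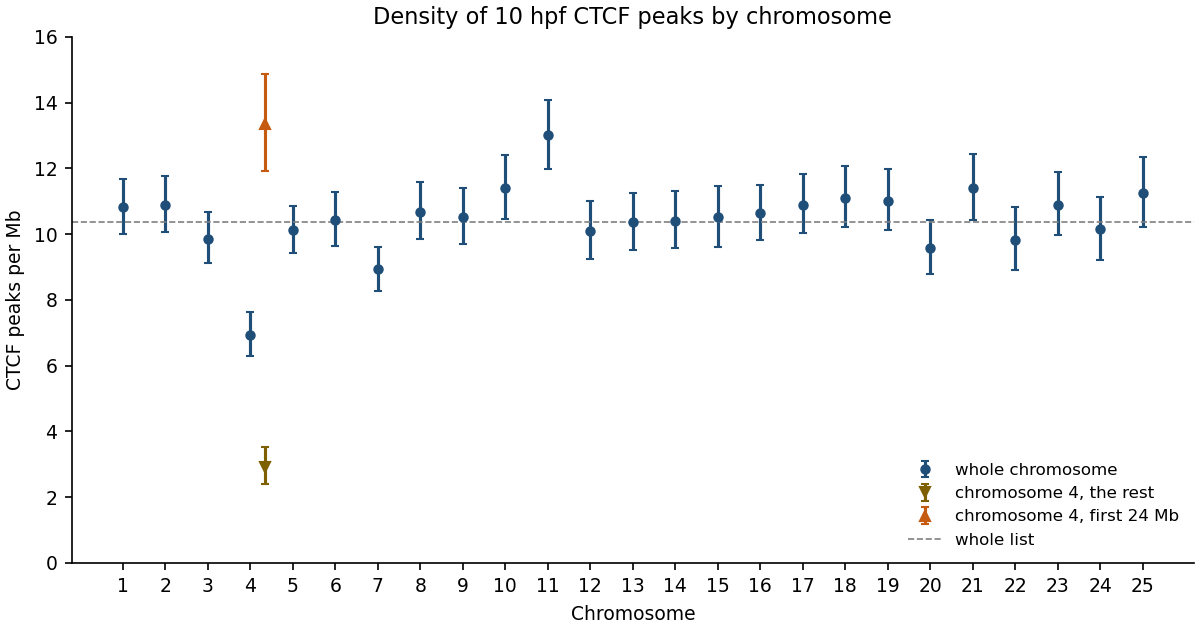
Density of CTCF peaks (peaks per Mb, vertical axis) on each of the 25 chromosomes, with exact 95% Poisson intervals. Most chromosomes sit near the list's 10.4 per Mb, chromosome 11 stands above at 13.0, and chromosome 4 divides into 2.91 per Mb beyond 24 Mb and 13.3 per Mb in its first 24 Mb.

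The low value of chromosome 4 came from its part beyond 24 Mb, here called its long arm. Beyond 24 Mb it held 111 peaks in 38.1 Mb, or 2.91 per Mb (2.40 to 3.51), while the first 24 Mb held 320 peaks, or 13.3 per Mb (11.9 to 14.9). The ratio of the long arm to the short arm was 0.219 (0.175 to 0.272). The cut at 24 Mb was taken from earlier results of these data, and the interval does not cover that choice. Density fell further along than the cut. Among twentieths of the chromosome's length, the ninth, beyond 24 Mb, had 10.6 per Mb, the tenth 4.19 and the eleventh 0.644. The short arm's interval overlapped that of chromosome 11. On the long arm 3 of the 111 peaks (2.70%) had another CTCF peak within 10 kb, against 72 of 320 (22.5%) on the short arm. That share depends on density, and whether the arms differ in it beyond their density was not tested. Rad21 at 10 hpf, called over the same input, had 9.28 peaks per Mb on the whole of chromosome 4 and 13.3 per Mb over all chromosomes. The like values of CTCF were 6.94 and 10.4 per Mb. The Rad21 density of the long arm alone is not given here. How much of the long arm could receive tags was not tested.

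Along the chromosomes the peaks were spread unevenly. Over 1344 windows of 1 Mb, pooled over the chromosomes, the median was 10 peaks (quartiles 8 and 13). The variance was 1.75 times the mean, and 1.57 times without chromosome 4, values that include differences between chromosomes. Of the windows 12 were empty, 8 of these on chromosome 4. Chromosome 4 makes up 4.58% of the length. At the other extreme, 27 windows held 20 peaks or more, and 6 of these were the first or last 1 Mb window of a chromosome. Of all 1344 windows, 50 are such a first or last window. The window of chromosome 2 that begins at 59 Mb and the first window of chromosome 11 were the densest, at 28 peaks each. On chromosome 11, the windows that begin at 2 Mb and at 11 Mb held 26 each. The first window of chromosome 9 held 23. Chromosome 11 thus supplied 3 of the 5, and both other windows touch or nearly touch a chromosome end, that of chromosome 2 stopping 0.239 Mb short of it. In the chromosome 2 window 9 of the 28 peaks had a neighbour within 10 kb, against 4 of the 28 in the first window of chromosome 11. Adjacent windows were weakly alike (Spearman rho 0.18 over 1319 pairs, a description).

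**Figure D2:**
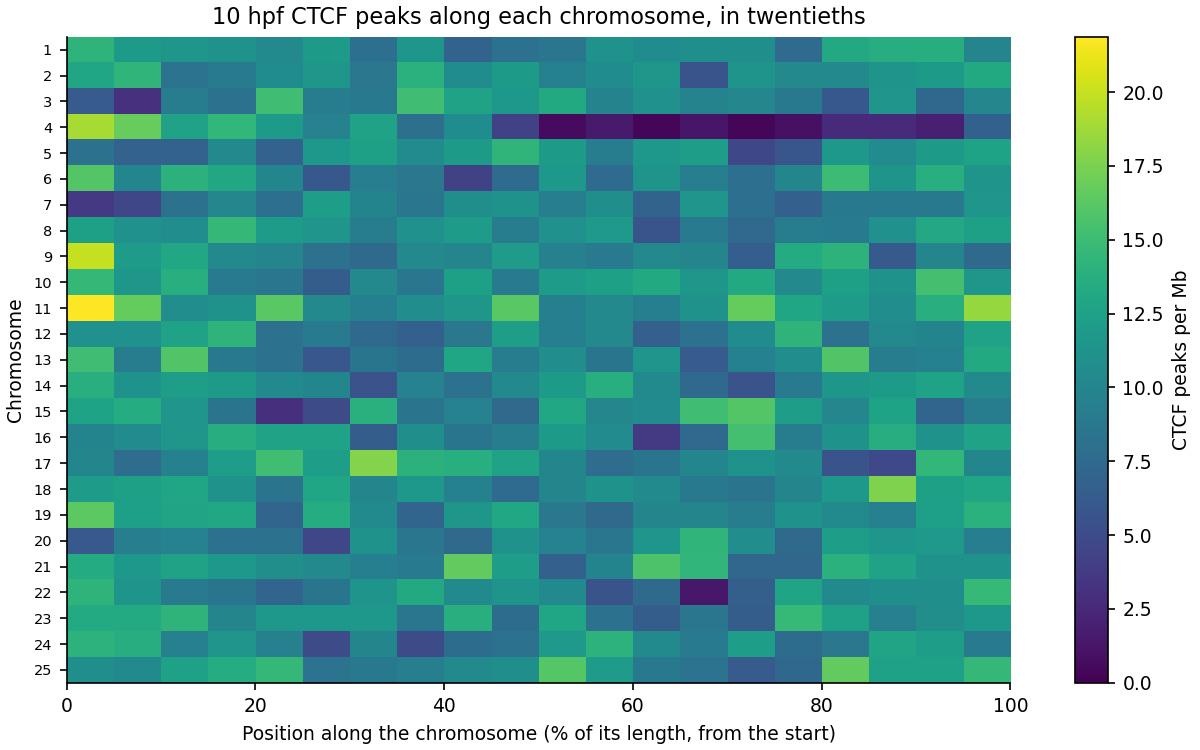
CTCF peaks per Mb (colour) in twentieths of each chromosome's length (horizontal axis, from its start), 1 row for each of the 25 chromosomes. The dark band in the second part of chromosome 4 lies within its part beyond 24 Mb, which as a whole held 2.91 peaks per Mb. Several first and last columns are brighter, among them the start of chromosome 11.

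CTCF peaks were denser toward chromosome ends. The outer 1 Mb at each of the 50 ends held 732 peaks, 5.20% (4.84 to 5.58) of the list on 3.69% of the length, a ratio of 1.41 (1.31 to 1.51). In peaks per Mb that was 14.6 in the end zones and 10.2 in the inner part. End zones were denser than the inner part on 23 of the 25 chromosomes. On the 2 others, chromosomes 15 and 20, the difference was under 0.1 peaks per Mb. The excess was steepest at the very edge. From 0 to 0.5 Mb of an end there were 16.6 peaks per Mb (15.04 to 18.3) and from 0.5 to 1 Mb 12.7 (11.3 to 14.2). From 1 to 2 Mb the density was 11.1 (10.2 to 12.1), and it was 9.70 (9.43 to 9.98) between 10 and 20 Mb. Chromosome starts, at position 1, gave a ratio of 1.503 (1.36 to 1.66). Chromosome ends, whose position was estimated from the outermost peak of any list, gave 1.32 (1.18 to 1.46). A CTCF peak itself set the length of 7 chromosomes.

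Single ends differed widely around a median of 15 peaks in the outer 1 Mb (quartiles 11 and 18). The start of chromosome 11 had 28, the end of chromosome 2 had 23 and the start of chromosome 9 had 23. The poorest were the end of chromosome 9 with 2, the start of chromosome 5 with 5 and the start of chromosome 20 with 6. Chromosome 9 thus had one of the richest ends and the poorest one, and 39 of the 50 ends lay above the list's mean density. The last 1 Mb of the sparse arm of chromosome 4 held 7 peaks, all in its outer 500 kb. At chromosome starts the outermost peak lay a median of 25.1 kb from position 1 (range 0.797 to 245.5 kb). Rad21 at 10 hpf had 19.6 peaks per Mb (17.9 to 21.4) in the outer 0.5 Mb, 10.4 (9.91 to 10.95) from 2 to 5 Mb and 16.4 (15.98 to 16.8) beyond 20 Mb, where CTCF had 9.99 (9.66 to 10.3). The lists share their input and the difference between them was not tested.

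The order of the rows carries information that the file does not print. The score that the authors deposited is 1 in every row, but the rows run by chromosome name (as text, 1 before 10 before 2) and then by position, and start again only 63 times in 14078 steps. The list therefore falls into 64 blocks, which were read as levels of a tied sorting value. Successive values held by few peaks, as at the top of the list, can run on within the same block. In that reading 64 is therefore the lowest possible number of values. Nothing in the header names that value. Levels tend to grow along the file, up to 2188 peaks at level 59, and the 5 levels of 1000 or more peaks hold 7638 peaks (54.3%). Within a level, place in the file is place on the genome. A decile of the rows can therefore miss a chromosome, and the eighth held no peak of chromosome 4 among its 1408. Shares at chromosome ends and with neighbours along the list are given with the levels kept whole, while counts over 5 equal parts of the rows, used for pairs and for Rad21 overlap, cut through levels.

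**Figure D3:**
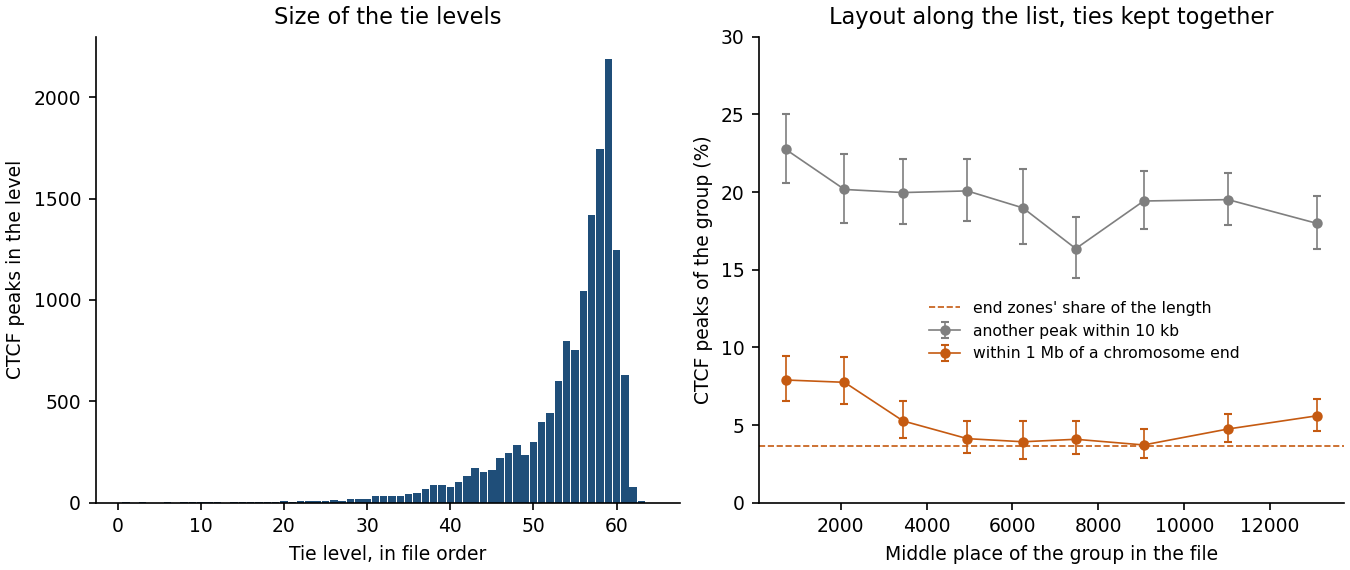
Left, number of CTCF peaks in each of the 64 tie levels in file order. Right, share of peaks within 1 Mb of a chromosome end and share with another CTCF peak within 10 kb in groups of whole levels (horizontal axis, middle place of the group), with exact 95% intervals. The end share is 7.91% in the first group and 3.72% at its lowest, near the 3.69% of the length that end zones make up.

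Peaks high in the list lay at chromosome ends more often than those in the middle of the list. In the first group of levels 114 of 1442 peaks, 7.91% (6.57 to 9.42), lay in end zones, and in the second group 100 of 1289, 7.76% (6.36 to 9.36). In the seventh it was 65 of 1745, 3.72% (2.89 to 4.72), and in the last 110 of 1963, 5.60% (4.63 to 6.71). As a ratio to the length share these are 2.14, 2.104, 1.01 and 1.52. By deciles of the rows, the first had 8.10% (6.72 to 9.65) and the last 6.11% (4.92 to 7.49). The share with a neighbour within 10 kb was 22.7% (20.6 to 24.999) in the first group of levels, 16.4% (14.5 to 18.4) in the sixth, the lowest, and 18.0% (16.3 to 19.8) in the last.

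The end excess had a different shape at the top and at the bottom of the list. Among the 2731 peaks of levels 1 to 50, density in the outer 0.5 Mb was 2.76 times (2.32 to 3.26) their own mean. It was 1.49 times (1.17 to 1.87) from 0.5 to 1 Mb, 0.765 times (0.604 to 0.956) from 1 to 2 Mb, and 1.21 times (1.13 to 1.30) beyond 20 Mb. These peaks were thus dense in a narrow rim and beyond 20 Mb, and thinner in between. The 7197 peaks of levels 51 to 58 stood at 1.32 times (1.13 to 1.53) in the outer 0.5 Mb and between 0.952 and 1.02 times in every band further in. The 4151 peaks of levels 59 to 64 declined more gradually toward the middle. Their density was 1.32 times their mean (1.08 to 1.60) in the outer 0.5 Mb, 1.46 times (1.27 to 1.66) from 1 to 2 Mb, 1.25 times (1.17 to 1.33) from 5 to 10 Mb and 0.700 times (0.652 to 0.752) beyond 20 Mb. The median distance from the nearest end was 14.99 Mb in the first levels, 13.6 Mb in the middle ones and 10.3 Mb in the last. The filter over input acts before the list is made, and whether input coverage changes along chromosomes was not tested.

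**Figure D4:**
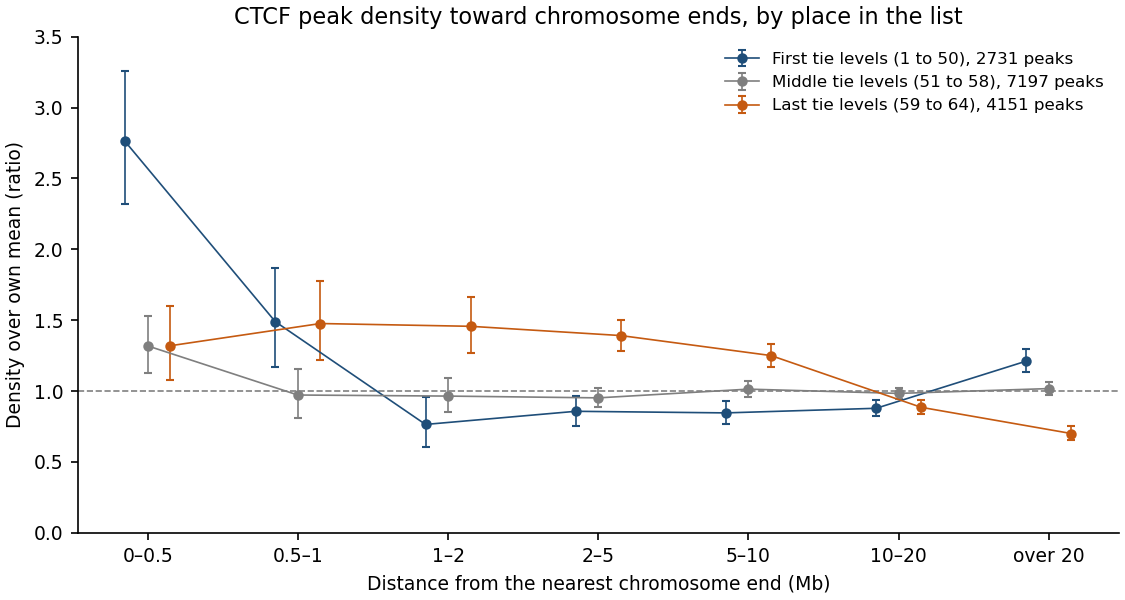
CTCF peak density in bands of distance from the nearest chromosome end (horizontal axis, Mb), divided by the mean density of the same levels (vertical axis), for the first, middle and last tie levels, with exact 95% Poisson intervals. The first levels reach 2.76 in the outermost band and 1.21 beyond 20 Mb, while the last levels stay above 1 out to 10 Mb and stand at 0.700 beyond 20 Mb.

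The first 4 peaks of the list lay near the end of chromosome 20, at 55787190 to 55787354, 55790208 to 55790372, 55785546 to 55785710 and 55775432 to 55775596, only 7.90 to 22.7 kb from the last position listed there. Then came chromosome 8, 17070044 to 17070208, and on chromosome 4 a peak at 11111684 to 11111848 and another at 10861118 to 10861282, both on its dense short arm. The eighth, on chromosome 1 at 618497 to 618661, lay 0.619 Mb from the start. The ninth lay at chromosome 2, 13978152 to 13978316, and the last of the 10 at chromosome 21, 15769994 to 15770158. So 5 of the 10 lay within 1 Mb of a chromosome end, 4 of them at the end of chromosome 20, which held 13 peaks in its outer 1 Mb. Those 4 overlapped Rad21 peaks of both 2.5 and 10 hpf but none of 4.5 hpf. Of the 6 others, only the peak on chromosome 1 overlapped a 4.5 hpf Rad21 peak. Those on chromosomes 1 and 21 overlapped a 10 hpf Rad21 peak. In the first group of levels 993 of 1442 peaks, 68.9% (66.4 to 71.2), overlapped one, so 6 of 10 is near that group's share.

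Neighbouring peaks lay a median of 60.1 kb apart from centre to centre (58.5 to 61.6, quartiles 24.3 and 125.7 kb) over 14054 pairs, with a mean of 96.4 kb. The shortest distance was 337 bp, just above the 328 bp that the caller required, and the longest 3.44 Mb. The median was 0.62 of the mean, where a constant rate along the genome would give the natural logarithm of 2, or 0.69. The SD was 1.26 times the mean, and 1.16 times without chromosome 4, where a constant rate gives 1. By chromosome, the median ran between 48.5 kb on chromosome 11 and 72.0 kb on chromosome 20. Chromosome 4 had a median of 62.6 kb, close to that of the list, and its 320 short-arm peaks outnumber the 111 of the long arm. Per kb of distance, pairs were about equally frequent from 1 to 20 kb, with 142 per kb at 1 to 2 kb, 135 at 2 to 5 kb, 160 at 5 to 10 kb and 152 at 10 to 20 kb. The caller required enrichment over the surrounding 10000 bp, and the part of that filter in these numbers was not tested.

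Close neighbours tended to have places in the list nearer to each other than distant neighbours did, though often still far apart. The median difference in place was 2164 rows for pairs under 1 kb and 3669 at 10 to 20 kb, in a list of 14079. For the 99 pairs under 1 kb apart, the tie levels of the 2 peaks were correlated with a Spearman rho of 0.52, and for the 142 pairs at 1 to 2 kb with a rho of 0.55. The rho was 0.36 for the 404 pairs at 2 to 5 kb, 0.21 for the 802 at 5 to 10 kb and between 0.11 and 0.15 in each band beyond 10 kb. Likeness thus reached over a few kb. Pairs under 10 kb apart share part of the surrounding 10000 bp over which the caller required enrichment, and the part of that filter in the likeness was not tested. These values are descriptions over pairs, which are not replicates. In 18 of the 39 pairs under 1 kb apart that had a peak in the first of 5 equal parts of the rows, both peaks were in it, against 98 of 506 at 10 to 20 kb.

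**Figure D5:**
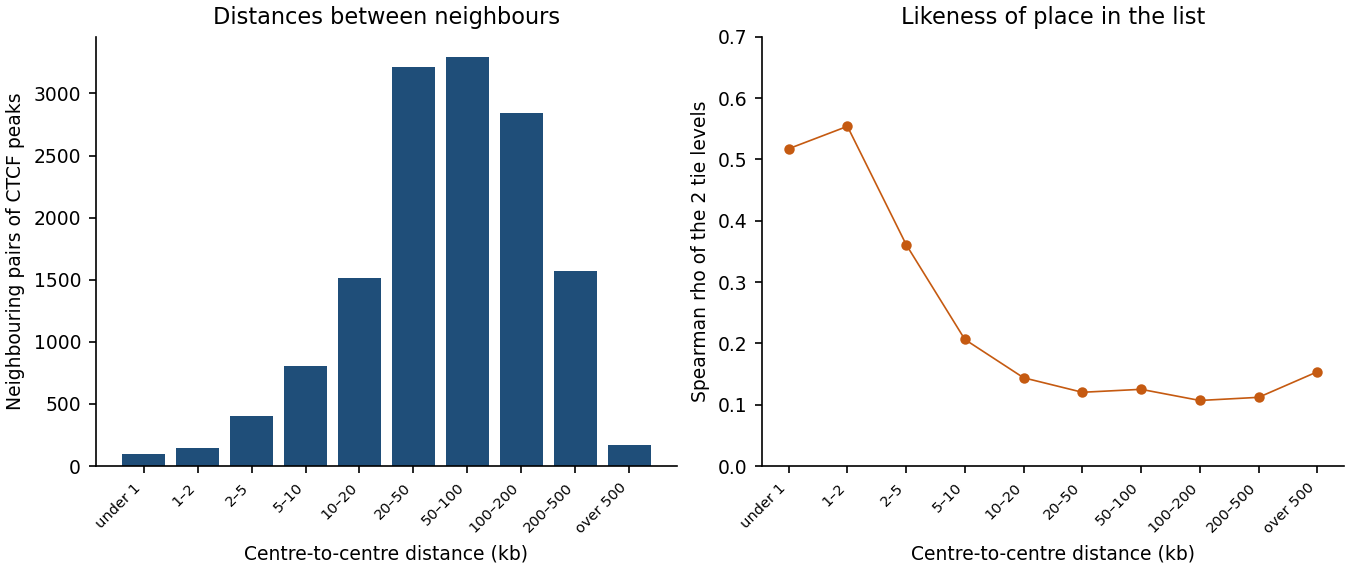
Left, number of neighbouring pairs of CTCF peaks in bands of centre-to-centre distance (kb, bands of unequal width). Right, Spearman rho between the tie levels of the 2 peaks of a pair in the same bands. The rho is above 0.5 under 2 kb and between 0.11 and 0.15 beyond 10 kb.

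Of the 5 closest pairs, 3 had near places in the list and 2 did not. On chromosome 11 peaks at 130518 to 130682 and 130855 to 131019 lay 337 bp apart, 0.131 Mb from the chromosome start, at places 5043 and 4240. On chromosome 14 peaks at 6058015 to 6058179 and 6058409 to 6058573 lay 394 bp apart, at places 10411 and 10412. The pair on chromosome 4, 4097323 to 4097487 and 4097724 to 4097888, lay 401 bp apart and had places 2646 and 2366. The 2 pairs that follow combined peaks from distant parts of the list. On chromosome 23, at 15333034 to 15333198 and 15333436 to 15333600 (402 bp), the places were 11302 and 4657. On chromosome 5, at 62154555 to 62154719 and 62154965 to 62155129 (410 bp), they were 13883 and 2391.

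Runs were short. Joining neighbours within 10 kb gave 1289 runs with 2736 peaks, 19.4% (18.8 to 20.1) of the list, while 11343 peaks stood alone. Of the runs 1150 were pairs, with a median span of 5.64 kb, 124 had 3 peaks, 11 had 4 and 4 had 5, and none had more. The share of peaks in runs was highest on chromosome 25, at 26.6%, and lowest on chromosome 5, at 16.3%. It was 24.5% (21.4 to 27.7) in end zones and 19.2% (18.5 to 19.8) in the inner part. Such shares depend on density, which was 14.6 peaks per Mb in end zones and 10.2 in the inner part. Whether runs, or runs of 3 or more, are more frequent at the ends than density alone would give was not tested. What a constant rate would give was not computed. Among peaks of the pairs, which hold most peaks in runs, 134 of 2300 lay in end zones, 5.83% (4.90 to 6.86). For the runs of 3 it was 37 of 372, 9.95% (7.10 to 13.4), and for the runs of 4, 8 of 44, 18.2% (8.19 to 32.7). Of the 11343 solitary peaks it was 553, 4.88% (4.49 to 5.29). Peaks of the same run lie together, so the intervals for runs count as independent peaks that are not. Those 8 peaks belong to 2 of the 11 runs of 4, and the 20 peaks of the runs of 5 included none in an end zone.

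The 4 runs of 5 peaks lay inside chromosomes. A run of 5 at chromosome 19, 13026643 to 13041712, spanned 15.1 kb, and one at chromosome 11, 6161914 to 6178873, spanned 17.0 kb. The other 2 runs of 5 were at chromosome 17, 16283399 to 16302565, over 19.2 kb, and chromosome 14, 17001218 to 17023608, over 22.4 kb. The shortest run of 4 was at chromosome 11, 11760822 to 11769213, over 8.39 kb, in one of the densest windows of the list. Each of these 5 runs held peaks from far apart in the list, for instance places 673 to 12669 on chromosome 19 and 733 to 10169 in the run of 4. In each of them 1 peak overlapped a 10 hpf Rad21 peak, while over the whole list 24.1% of CTCF peaks did.

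Stretches of at least 1 Mb without a CTCF peak were rare and gathered on 1 chromosome arm. There were 14, on 5 chromosomes, with a summed length of 25.2 Mb or 1.86% of the length. On chromosome 4 there were 9, all beyond 24 Mb, and they make up 17.4 Mb or 45.6% of its long arm. Their number depends on density, which was 2.91 peaks per Mb on that arm and 10.4 over the list. How many stretches that density alone would give was not computed. The longest ran over chromosome 4, 43542431 to 46980581, or 3.44 Mb. After it came chromosome 7, 1844700 to 4473762, with 2.63 Mb, the longest outside chromosome 4. Another 3 stretches of over 2 Mb lay on chromosome 4, at 30924378 to 33179829 (2.26 Mb), 38506032 to 40662539 (2.16 Mb) and 36396326 to 38505866 (2.11 Mb). A single peak at chromosome 4, 38505867 to 38506031, separated the last of these from the one before. The first peak beyond the longest stretch, at chromosome 4, 46980582 to 46980746, stood at place 268 of the list, and on its other side a shorter stretch began, 46980747 to 48505136 (1.52 Mb).

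The rest of the 10 longest were chromosome 4, 60103004 to 61869774 (1.77 Mb), chromosome 4, 49022687 to 50500835 (1.48 Mb), chromosome 22, 28450833 to 29881002 (1.43 Mb), and chromosome 7, 17759144 to 19118615 (1.36 Mb). The first of these stops 0.220 Mb from the end of chromosome 4, where the 7 peaks of its outer 500 kb begin. Both stretches of chromosome 7 lay on a chromosome with the second lowest density. Outside chromosome 4 the 5 stretches summed to 7.82 Mb. No stretch reached 1 Mb on the other 20 chromosomes, among them chromosome 11, whose longest distance between neighbours was 0.521 Mb.

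Each of these stretches held at least 1 Rad21 peak of some stage, and how much of their length could receive tags was not tested. The 14 stretches, 1.86% of the length, held 193 of the 2011 Rad21 peaks of 2.5 hpf. They held 28 of the 7144 of 4.5 hpf and 42 of the 18075 of 10 hpf. For 2.5 hpf that is more than their share of the length, and for 4.5 and 10 hpf less. Of the 193 peaks of 2.5 hpf, 156 lay in the stretches of chromosome 4 and 37 in the others. Of these 37, 24 lay in the stretch of chromosome 22 and 12 in that of chromosome 15. The 9 stretches on chromosome 4 held 28 Rad21 peaks of 10 hpf, 1.61 per Mb, and the 5 others held 14, 1.79 per Mb. Over all chromosomes there were 13.3 per Mb. On chromosome 4 and elsewhere the stretches thus held few Rad21 peaks of 10 hpf, and 12 of the 14 stretches held at least 1 Rad21 peak of that stage. The longest held 55 Rad21 peaks of 2.5 hpf, 3 of 4.5 hpf and 6 of 10 hpf. The longest on chromosome 7 held 1 of 2.5 hpf, 4 of 4.5 hpf and 4 of 10 hpf. The stretches have 28 flanks, and a CTCF peak that stands between neighbouring stretches counts once for each. At 5 of the 28 flanks the CTCF peak overlapped a 10 hpf Rad21 peak, where the whole list has 24.1%. The peak at chromosome 4, 38505867 to 38506031, is among those 5 for both stretches beside it. The 2.5 hpf libraries had reads of 125 bp and 6 sonication cycles, against 50 bp and 10 cycles at 4.5 and 10 hpf. The 2.5 hpf list was also made with another caller from paired-end reads, and the 10 hpf lists share their input. These numbers are therefore set side by side without a test.

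Both 10 hpf lists were called over the same input, so the following shares describe the CTCF peaks and are no evidence of joint binding that is independent of it. In end zones 220 of 732 CTCF peaks, 30.1% (26.8 to 33.5), overlapped a 10 hpf Rad21 peak by at least 1 bp, against 3171 of 13347 in the inner part, 23.8% (23.0 to 24.5), a difference of 6.30 percentage points (3.004 to 9.79, Newcombe interval). In the first of 5 equal parts of the rows the order was the opposite, with 54.1% (47.3 to 60.7) of 222 end-zone peaks and 66.1% (64.2 to 67.9) of 2594 inner peaks, a difference of -12.0 points (-18.8 to -5.33). In the 4 other parts end-zone peaks had the higher share, by 4.15 to 9.11 points, and the interval included 0 in parts 2 and 3. The difference of 6.30 points does not adjust for these parts. The first part held 222 of the 732 end-zone peaks and 2594 of the 13347 inner ones. In it 65.1% of all CTCF peaks overlapped Rad21, against 24.1% over the list. How much of the 6.30 points comes with place in the list was not tested. Peaks in runs and peaks alone stood close together, with 24.2% (22.6 to 25.8) of 2736 and 24.1% (23.3 to 24.9) of 11343, a difference of 0.14 points (-1.62 to 1.95). In the first of the 5 parts it was 60.9% (56.9 to 64.8) in runs and 66.3% (64.3 to 68.3) alone, a difference of -5.39 points (-9.76 to -1.11). No test of these differences was made.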

How the data were processed

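Per the submitters' processing notes, reads were aligned with Bowtie2 2.2.1 to Zv9 and HOMER was used. Per the file headers, HOMER called the CTCF list with the false discovery rate set to 0.001 and enrichment of 4-fold required both over input and over the surrounding 10000 bp, at most 2 tags per position and peaks at least 328 bp apart. The Rad21 headers of the HOMER lists state that peaks were centred at the maximum tag pile-up, and the CTCF header has no such line. The score the authors deposited is 1 in every row and was not used. The 2.5 hpf list was called with MACS2, per the file headers, and the deposited width in bp of its peaks follows from their positions, which alone were used. One tag directory and one input directory entered the CTCF call, taken as both libraries pooled, which the headers do not state.

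Positions were made 1-based. Chromosome length was the largest end over the 4 lists, which sums to 99.9% of the genome size in the CTCF header. End zones were the outer 1 Mb, runs joined centres within 10 kb, windows were 1 Mb, and stretches without CTCF were 1 Mb or longer from edge to edge. The cut of chromosome 4 at 24 Mb was taken from earlier results of these data. Levels are blocks of rows in order of chromosome name and position. Groups of levels along the list keep levels whole, each level going to that of 10 equal parts in which its middle row falls, and the ninth received none. Sites named are the first 10 peaks, the 3 densest and sparsest chromosomes and ends, the 5 densest windows, the 5 largest runs, the 5 closest pairs and the 10 longest stretches. Intervals are exact binomial (Clopper-Pearson), exact Poisson, order-statistic for medians and Newcombe for differences, from scipy 1.17.1 in Python 3.11.15. Measures were tested on simulated lists, whose levels all held more peaks than the first levels of this list. The peaks, sites and measures were chosen with earlier results of these data known. Alternatives were the first 50% of the list, other zones, distances and lengths, merged peaks, leaving out chromosome 4 and other orders. Keeping levels whole, leaving out each chromosome and leaving out chromosome 4 beyond 24 Mb were chosen after seeing the data, so the groups of whole levels in the report are such a choice beside the planned deciles. Motifs, genes and sequences at the peaks are not analysed here, since no Zv9 genome was used. The total of 41310 peaks counts 1 peak of the 2.5 hpf list that lies on none of chromosomes 1 to 25 and was not used.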

Additional observations from a re-analysis of the deposited data

How the results depend on the processing

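No paired analysis was possible because the CTCF list is a single call with no value per library, and for the same reason no replicate could be left out. Of the 48 alternatives to the 7 measures the report rests on, 30 stayed within the 95% interval of the reported value, or within 1.5 times a reported count, and 18 did not. Some of the 30 could move little by construction, such as those that leave out 1 chromosome or measure distances between edges. Their number is therefore no measure of how stable the results are. Leaving out each chromosome in turn was chosen after the data were seen, and gave an end ratio of 1.39 to 1.43, a median distance of 59.6 to 60.6 kb, a share in runs of 19.2 to 19.6% and a Rad21 difference of 5.44 to 6.99 points.

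The ratio of the densest to the sparsest chromosome was 1.46 without chromosome 4 and 1.49 without its part beyond 24 Mb. The end ratio was 1.60 with zones of 500 kb, 1.24 with 2 Mb, 1.13 with 5 Mb, 1.16 with zones of 5% of the length and 1.56 in the first 50% of the list. In those rows, which are fewer peaks, the median distance was 109.6 kb, the share in runs 13.2% and the number of stretches 105. The share in runs was 8.94% with neighbours within 5 kb, 37.5% within 20 kb, 68.3% within 50 kb and 18.0% with peaks within 1 kb merged, as the construction sets. Stretches numbered 171 at 500 kb or more, 5 at 2 Mb or more, 5 without chromosome 4 and 5 without its part beyond 24 Mb. The end share of the first decile, 8.10%, stayed within its interval under the 5 alternatives run, at 7.88 to 8.81%. In the first 50% of the list the Rad21 difference between end zones and inner part was 3.71 points with an interval that included 0 (-1.22 to 8.72). The variance over the mean was 3.40 with windows of 5 Mb. With lengths from the CTCF list alone the end ratio was 1.43. Depth of a single library and mappable length were not analysed here.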
